A study of Mus musculus with 32 samples.

Results

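The transcripts of 10 subunits of condensin and cohesin were followed in mouse embryonic fibroblast lines treated with the replication inhibitor aphidicolin (APH). The 10 genes were taken by symbol from the 39017 genes of the deposited read count table: Smc2 and Smc4, which both condensins share; Ncapd2, Ncapg and Ncaph of condensin I; Ncapd3 and Ncapg2 of condensin II; and Smc1a, Smc3 and Rad21 of cohesin. The rule uses symbols only, although the set was proposed with results of these data known. All 10 passed the filter on low counts, which left 18484 genes for testing.

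Condensins and cohesin are ring-shaped complexes built on a pair of SMC ATPases closed by a kleisin subunit, to which HEAT-repeat subunits bind. Condensins fold chromatin into loops that compact mitotic chromosomes; condensin II is nuclear through interphase, whereas condensin I reaches chromosomes after the nuclear envelope breaks down. Cohesin holds sister chromatids together from replication until anaphase and forms loops in interphase, and transcripts of many condensin subunits rise in proliferating cells before mitosis.

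RNA of 4 lines was sequenced: a wild-type line (wtATM) with an ATM knock-out line (ATMko), and a second wild-type line (wtATMIN) with an ATMIN knock-out line (ATMINko). ATM is a kinase activated by DNA breaks, and ATMIN is an ATM-binding protein. Each line received the solvent DMSO or 1 µM APH, an inhibitor of the replicative DNA polymerases, for 4 h or 24 h in complete DMEM. The resulting 16 groups held 2 samples each, 32 in all. Each genotype was 1 line, so that genotype and line cannot be told apart, and the knock-out alleles are not given in the sources used here. Whether a group's samples came from separate cultures is not labelled, so the p-values measure only the spread between these samples. In bulk RNA, a change in the share of cells in a cell-cycle stage and a change in RNA per cell cannot be told apart.

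Libraries held 9321329 to 21020662 counted reads. The targeted gene was lower in each knock-out line over 8 samples: Atmin lay at 3.77 to 6.77 CPM (CPM are read counts scaled to library size) in ATMINko against 20.4 to 32.9 in wtATMIN, and Atm lay at 17.8 to 45.5 CPM in ATMko against 43.1 to 65.1 in wtATM, which overlap. Fibroblast markers were present in every line (8 or 9 of 9 at a mean of 1 CPM or more, summed to 7285 CPM or more in each sample), while epithelial, endothelial, muscle and adipocyte markers summed to 7.94 CPM or less, blood markers to at most 24.2 and neural markers to at most 70.6. The libraries of ATMko treated with APH for 4 h stood apart. Replicate 2 was the shallowest, with 9321329 reads, and had reads in 406 of 1434 olfactory and vomeronasal receptor genes, against 17 to 95 in the 30 libraries of other groups and 155 in replicate 1. Replicate 1 had 97900 CPM on Gm42418, a gene that overlaps ribosomal RNA, against at most 41292 in those 30. The members' calls in this group are given with and without replicate 2. Values without replicate 2 rest, in this group, on replicate 1 alone, which stood apart as well. The share of all genes called without replicate 2 is given only for APH against DMSO at 4 h. The part of these library differences in the calls was not tested.

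The promoters of 4 condensin genes are shown because these are the corresponding HEAT-repeat subunits of condensin I and condensin II, whose ratio within a sample was higher after 4 h of APH in every line. The sequences are RefSeq's on GRCm38.p6, 5′ to 3′ on the strand of the gene, and end before the first annotated transcript start. Capitals mark the CHR element (TTTGAA) and the CCAAT box, both known from promoters of G2/M genes, and the E2F site (TTTCCCGC, TTTGGCGC or TTTCGCGC), known from promoters of S-phase genes, on either strand. The marked motifs do not overlap one another. Ncapd2 lies at chr6:125191702-125191836 on the minus strand, Ncapg at chr5:45669675-45669918, Ncapd3 at chr9:27029915-27030164 and Ncapg2 at chr12:116405186-116405401, the last 3 on the plus strand.
Ncapd2: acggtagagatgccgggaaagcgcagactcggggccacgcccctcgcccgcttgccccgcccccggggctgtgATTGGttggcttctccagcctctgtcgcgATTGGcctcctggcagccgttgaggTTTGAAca
Ncapg: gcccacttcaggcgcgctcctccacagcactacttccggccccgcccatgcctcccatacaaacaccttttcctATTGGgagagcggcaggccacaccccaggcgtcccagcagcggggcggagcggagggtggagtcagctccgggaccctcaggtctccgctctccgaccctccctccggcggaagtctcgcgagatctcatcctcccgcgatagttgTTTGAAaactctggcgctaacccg
Ncapd3: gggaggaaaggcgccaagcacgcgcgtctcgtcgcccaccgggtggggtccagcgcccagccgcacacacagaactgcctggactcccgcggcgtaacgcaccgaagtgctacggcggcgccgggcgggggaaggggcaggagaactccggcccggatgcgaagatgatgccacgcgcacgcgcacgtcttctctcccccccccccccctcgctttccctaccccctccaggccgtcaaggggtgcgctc
Ncapg2: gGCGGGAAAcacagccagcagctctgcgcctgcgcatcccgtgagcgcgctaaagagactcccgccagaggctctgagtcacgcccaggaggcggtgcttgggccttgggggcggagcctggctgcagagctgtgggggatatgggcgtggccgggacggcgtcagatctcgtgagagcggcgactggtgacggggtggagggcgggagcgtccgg

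In the 250 bases before the RefSeq start, the promoters of 8 members could be matched; Smc4 and Rad21 were not matched. Both condensin I promoters shown hold a CHR element and at least 1 CCAAT box, whereas that of Ncaph, the other matched gene of condensin I, holds none of the 3 motifs. Ncapd3, of condensin II, holds none of the 3 motifs. Ncapg2 holds an E2F site, and its CHR element lies at -18 to -13 from the RefSeq start, outside the printed stretch, as does an E2F site of Ncapd2 at -8 to -1. Over the 8 members, 4 had a CHR element, 4 a CCAAT box and 2 an E2F site, against 15.99%, 33.8% and 1.53% of 32851 mouse promoters of that length. A match is a description of the sequence, not a binding site.

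The gene bodies of the members (GRCm38) lie at chr4:52439243-52488260 for Smc2 (ENSMUSG00000028312), chr3:69004738-69034623 for Smc4 (ENSMUSG00000034349), chr6:125168007-125191701 for Ncapd2 (ENSMUSG00000038252), chr5:45669919-45700546 for Ncapg (ENSMUSG00000015880) and chr2:127103809-127133954 for Ncaph (ENSMUSG00000034906). Ncapd3 (ENSMUSG00000035024) lies at chr9:27030175-27095315, Ncapg2 (ENSMUSG00000042029) at chr12:116405402-116463731, Smc1a (ENSMUSG00000041133) at chrX:152016428-152062694, Smc3 (ENSMUSG00000024974) at chr19:53600398-53645833 and Rad21 (ENSMUSG00000022314) at chr15:51962240-51991747. Lcorl lies antisense to Ncapg and held 11322 reads over all libraries against 58923 for Ncapg. The kit does not mark strand, so the Ncapg values are uncertain to that extent. The antisense Gm15267 held 2.12% of the reads of Smc1a, and no other overlapping gene held over 0.112% of a member's reads.

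Levels between genes were compared as CPM per kilobase of the authors' gene length (CPM/kb). Rad21, the kleisin of mitotic cohesin, had the highest median level of the 10, at 125 CPM/kb (range 79.3 to 182 over 32 samples). Smc4 followed at 88.0 (28.9 to 127) and Ncapd2 at 74.8 (39.5 to 113), whereas the other shared condensin ATPase, Smc2, had a median of 43.5 (24.3 to 69.0). The cohesin ATPases lay between, Smc1a at 59.7 (40.8 to 74.5) and Smc3 at 50.05 (25.1 to 72.3). The remaining condensin I subunits had medians of 30.4 (Ncapg; 12.9 to 56.1) and 30.3 (Ncaph; 21.8 to 60.2). The condensin II subunits were lowest, Ncapg2 at 19.9 (10.4 to 37.6) and Ncapd3 at 14.8 (7.83 to 27.9). The ranges of all neighbours in this order overlap.

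**Figure D1:**
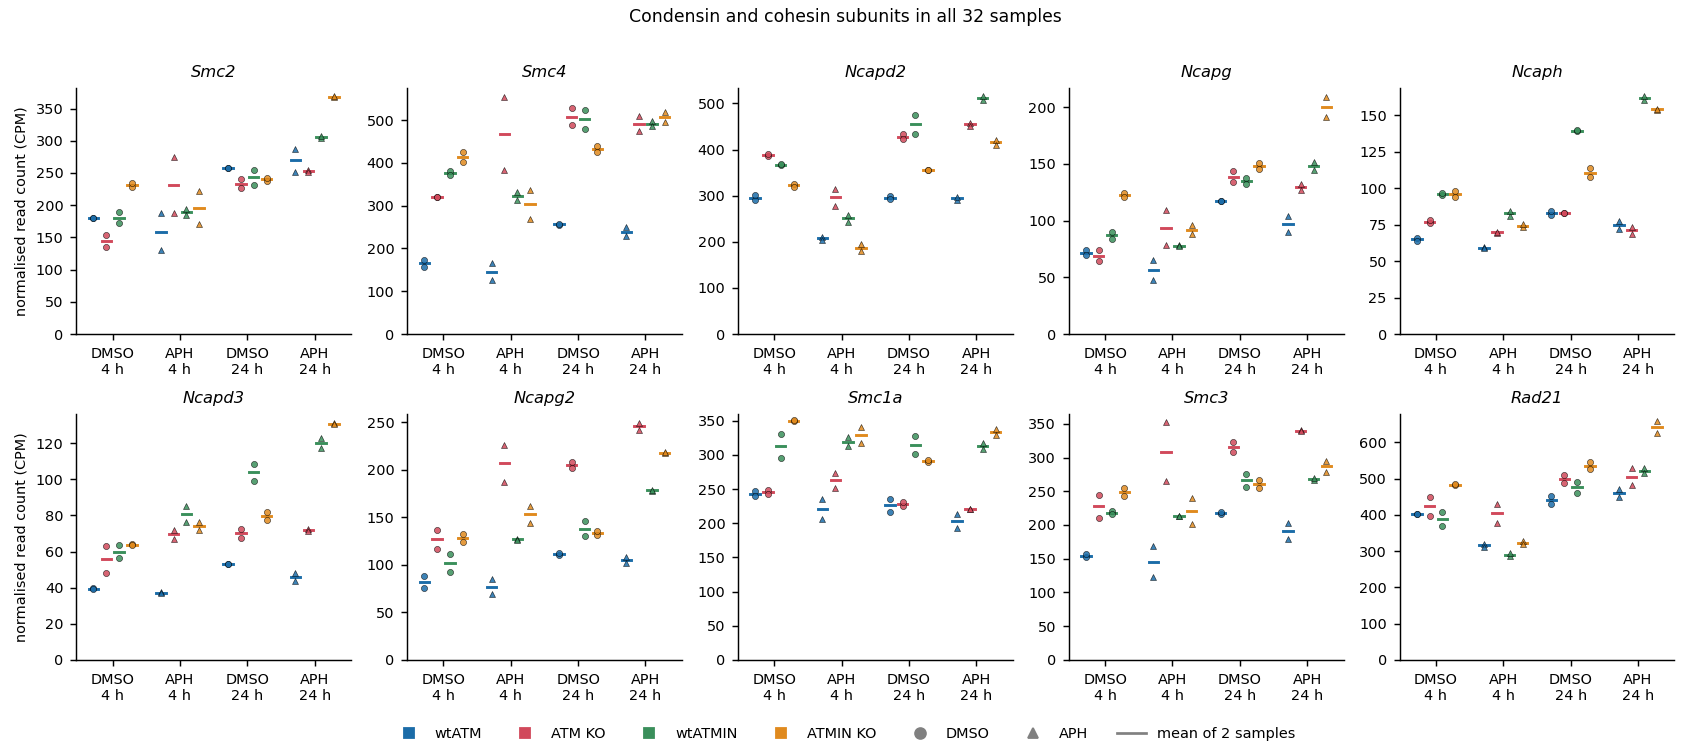
Expression of the 10 members in CPM (linear axes from 0) in each of the 32 samples, grouped by line and condition; points are samples and bars the mean of 2 samples. Ncapd2 lies lower after APH for 4 h than after DMSO for 4 h in all 4 lines, and the 2 samples of ATMko after APH for 4 h lie far apart for Smc2, Smc4 and Smc3.

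The first question was how 4 h of APH changed each subunit within each line, which has its own DMSO samples. Of the 10 members, 0 rose and 2 fell in wtATM, against 2.82% higher and 2.76% lower among all genes. In ATMko 6 rose and 1 fell (all genes 14% higher and 15.4% lower), in wtATMIN 2 rose and 3 fell (7.25% higher and 7.75% lower) and in ATMINko 0 rose and 5 fell (9.48% higher and 10.9% lower). The median log2 change of the 10 was -0.16, 0.37, -0.10 and -0.30 in wtATM, ATMko, wtATMIN and ATMINko, against -0.01, 0.00, -0.01 and -0.02 over all genes. Without replicate 2 of the APH samples of ATMko, 1 member rose and 1 fell there (all genes 6.46% higher and 6.09% lower) and the median of the 10 was 0.19. Without replicate 1 instead, the median of the 10 in ATMko was 0.48. Calls are edgeR quasi-likelihood tests with Benjamini-Hochberg adjustment over all genes, at an adjusted p under 0.05.

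Ncapd2, a HEAT-repeat subunit of condensin I, was the one member called lower in all 4 lines. It went from 291 and 301 CPM in the DMSO samples to 211 and 204 CPM with APH in wtATM. In ATMko it went from 387 and 391 to 315 and 279 CPM, and in wtATMIN from 366 and 368 to 243 and 259 CPM. In ATMINko it went from 326 and 319 to 180.0 and 195 CPM. Both APH samples were below both DMSO samples in every line. The log2 fold changes (± standard error) were -0.51 ± 0.062, adjusted p = 1.95e-07 in wtATM, -0.39 ± 0.061, adjusted p = 1.62e-05 in ATMko, -0.55 ± 0.061, adjusted p = 2.36e-08 in wtATMIN and -0.78 ± 0.062, adjusted p = 4.12e-12 in ATMINko. Of all genes tested, 0.893% were lower in all 4 lines by the same rule, and no member was higher in all 4 (0.444% of all genes). The calls held without each library in turn, but that in ATMko was lost when its 4 h groups were fitted alone (log2 -0.36, adjusted p = 0.100).

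Ncaph, the kleisin of condensin I, was called lower in both lines of the ATMIN pair. It lay at 95.5 and 96.9 CPM with DMSO and 81.2 and 84.1 with APH in wtATMIN, and at 93.8 and 98.1 and then 73.5 and 75.3 in ATMINko. The APH samples lay below the DMSO samples in both lines, with log2 changes of -0.22 ± 0.062, adjusted p = 0.012, and -0.37 ± 0.062, adjusted p = 2.58e-05. In wtATM and ATMko the changes were -0.13 and -0.14, neither past the threshold (ATMko without APH replicate 2: -0.15). Both APH samples lay below both DMSO samples in these lines too, as for 25.0% of all genes in wtATM and 28.7% in ATMko. The means of Ncaph went from 65.1 to 59.3 CPM in wtATM and from 76.9 to 69.6 CPM in ATMko. With library size only, Ncaph was called lower in ATMko (-0.20, adjusted p = 0.0248). The call in wtATMIN was lost without replicate 2 of its 4 h DMSO samples or replicate 1 of its 4 h APH samples (highest adjusted p = 0.131), and when the compared groups were fitted alone (adjusted p = 0.0788).

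Rad21, whose cleavage by separase releases sister chromatids, fell in 3 lines. In wtATM it went from 401 and 403 CPM to 319.9 and 312 CPM, in wtATMIN from 406 and 369.7 to 287 and 294 CPM and in ATMINko from 481 and 486 to 327 and 319 CPM. The groups did not overlap in these 3 lines, with log2 changes of -0.35 ± 0.068, adjusted p = 0.000681, then -0.42 ± 0.068, adjusted p = 2.51e-05, and -0.58 ± 0.068, adjusted p = 3.6e-08. In ATMko the samples overlapped, 450.0 and 398 CPM with DMSO and 376 and 431 CPM with APH (log2 -0.07 ± 0.068, adjusted p = 0.467). Without replicate 2 of the APH samples the change there was -0.18 (adjusted p = 0.104), with the remaining sample below both DMSO samples. The cohesin ATPases were not called in these 3 lines: in wtATM, wtATMIN and ATMINko Smc1a changed by -0.14, 0.03 and -0.09, and Smc3 by -0.08, -0.04 and -0.18, on the log2 scale.

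The condensin II subunits Ncapd3 and Ncapg2 were not called lower in any line at 4 h. Ncapd3 lay at 63.8 and 56.3 CPM with DMSO and 85.2 and 76.3 CPM with APH in wtATMIN, a rise of 0.43 ± 0.087, adjusted p = 0.000563. Ncapg2 lay there at 111 and 93.0 CPM with DMSO and 127 and 126 CPM with APH, a rise of 0.31 ± 0.096, adjusted p = 0.0224. Both were higher in every APH sample than in every DMSO sample of that line. In ATMINko the samples did not overlap either, 64.0 and 63.5 against 76.4 and 72.1 CPM for Ncapd3 and 132 and 124 against 162 and 144 CPM for Ncapg2, but the tests did not pass the threshold (adjusted p = 0.0707 and 0.0551). Ncapg2 was called higher in ATMINko with RLE size factors (adjusted p = 0.0406), no filter (0.0163), DESeq2 (0.0397) and the compared groups alone (0.000623). Ncapd3 was called higher there with the compared groups alone (0.00407). In wtATM the log2 changes of Ncapd3 and Ncapg2 were -0.08 and -0.09. The call of Ncapg2 in wtATMIN was lost without replicate 2 of its DMSO samples or either of its APH samples at 4 h (log2 0.19 to 0.44, highest adjusted p = 0.381), and with scaling by library size only (0.0995).

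In ATMko, 6 members were called higher after 4 h of APH, and the call of 5 of them was lost without replicate 2 of the APH samples. Smc2 lay at 153 and 135 CPM with DMSO and 188 and 275 CPM with APH, Smc4 at 321 and 321 and then 383 and 553 CPM, and Smc3 at 245 and 211 and then 265 and 353 CPM. Ncapg lay at 74.1 and 64.4 CPM with DMSO and 78.4 and 109 with APH, and Ncapd3 at 63.3 and 48.0 and then 67.2 and 71.7. In each of these genes the higher APH value was that of replicate 2, the shallowest library. The log2 changes were 0.68 ± 0.16, adjusted p = 0.00371 for Smc2, 0.54 ± 0.13, adjusted p = 0.00423 for Smc4, 0.43 ± 0.12, adjusted p = 0.00733 for Ncapg, 0.31 ± 0.091, adjusted p = 0.00833 for Ncapd3 and 0.43 ± 0.12, adjusted p = 0.00799 for Smc3. Without that library they were 0.37 (adjusted p = 0.147), 0.25 (0.194), 0.17 (0.357), 0.26 (0.0899) and 0.21 (0.319), none past the threshold. Smc2, Ncapg, Ncapd3 and Smc3 also lost their call without replicate 2 of the 4 h DMSO samples of ATMko. Ncapg2 rose from 137 and 117 to 188 and 226 CPM (0.70 ± 0.095, adjusted p = 3.6e-06) and was still called without the shallow library (log2 0.56, adjusted p = 0.00046). Smc1a changed by 0.10 and was not called.

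The 5 that fell in ATMINko were Ncapd2, Ncaph and Rad21, described above, with Ncapg, from 124 and 120.5 to 96.3 and 87.9 CPM (-0.41 ± 0.11, adjusted p = 0.0088), and Smc4, from 426 and 403 to 338 and 269.8 CPM (-0.45 ± 0.13, adjusted p = 0.0195). The call of Ncapg was lost without replicate 1 of the DMSO or replicate 2 of the APH samples (highest adjusted p = 0.0971), and that of Smc4 without either DMSO sample or replicate 2 of the APH samples (log2 -0.62 to -0.30, highest adjusted p = 0.207). Smc4 was also not called with library size only (0.0662) or with the compared groups alone (0.0682).

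**Figure D2:**
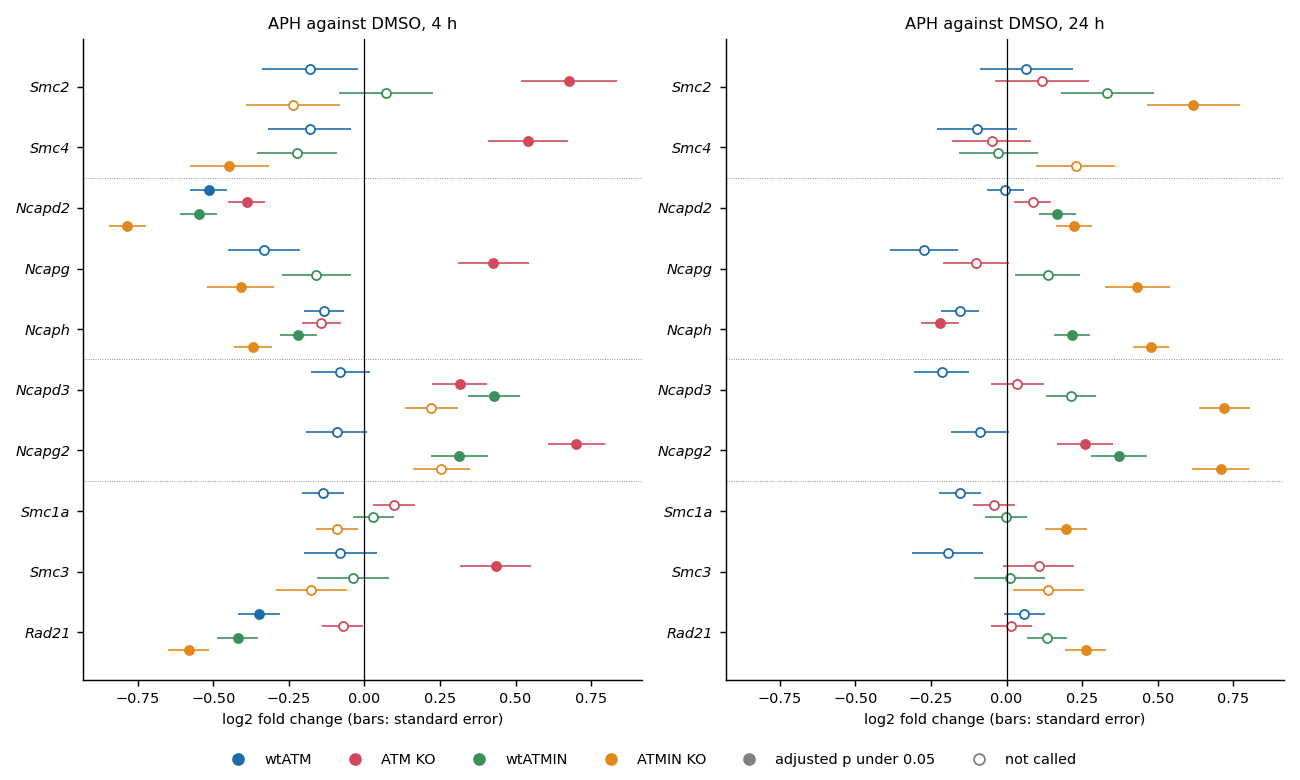
Log2 fold change of each member with APH against DMSO in each line, at 4 h and at 24 h, from the edgeR fit over all 32 samples; bars are standard errors and filled points passed an adjusted p under 0.05. At 4 h Ncapd2 lies between -0.78 and -0.39 in all 4 lines, and at 24 h 8 filled points lie above 0 in ATMINko.

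Within a sample, the ratio of 2 subunits needs no scaling between libraries. The level of Ncapd3 over that of Ncapd2, the corresponding HEAT-repeat subunits of condensin II and condensin I, was higher in both APH samples than in both DMSO samples of every line at 4 h. In wtATM it was 0.132 and 0.126 with DMSO and 0.173 and 0.175 with APH, and in ATMko 0.158 and 0.119 and then 0.206 and 0.249. In wtATMIN it was 0.169 and 0.148 with DMSO and 0.339 and 0.285 with APH, and in ATMINko 0.19 and 0.192 and then 0.41 and 0.358. The level of Ncapg2 over that of Ncapg, the other HEAT-repeat pair, was likewise higher with APH in every line at 4 h. It was 0.575 and 0.716 against 0.732 and 0.809 in wtATM, and 0.596 and 0.579 against 0.944 and 0.917 in ATMINko. Reads of the antisense Lcorl cannot be told from those of Ncapg without strand, so this ratio is uncertain to that extent. At 24 h the Ncapg2 ratio was again higher in both APH samples of each line. It was 0.53 and 0.537 against 0.582 and 0.634 in wtATM, and 0.842 and 0.815 against 1.06 and 1.07 in ATMko. In wtATMIN it was 0.552 and 0.595 against 0.69 and 0.662, and in ATMINko 0.504 and 0.505 against 0.585 and 0.639. At 24 h the Ncapd3 ratio was 0.222 and 0.21 with DMSO and 0.302 and 0.307 with APH in ATMINko, while in wtATM it was 0.172 and 0.176 with DMSO and 0.145 and 0.156 with APH. The kleisin of condensin II, Ncaph2, was not set over Ncaph, that of condensin I. In ATMko at 4 h its log2 change was lower than that of Ncaph, the other way from these pairs. The ratios are descriptions and were not tested.

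**Figure D3:**
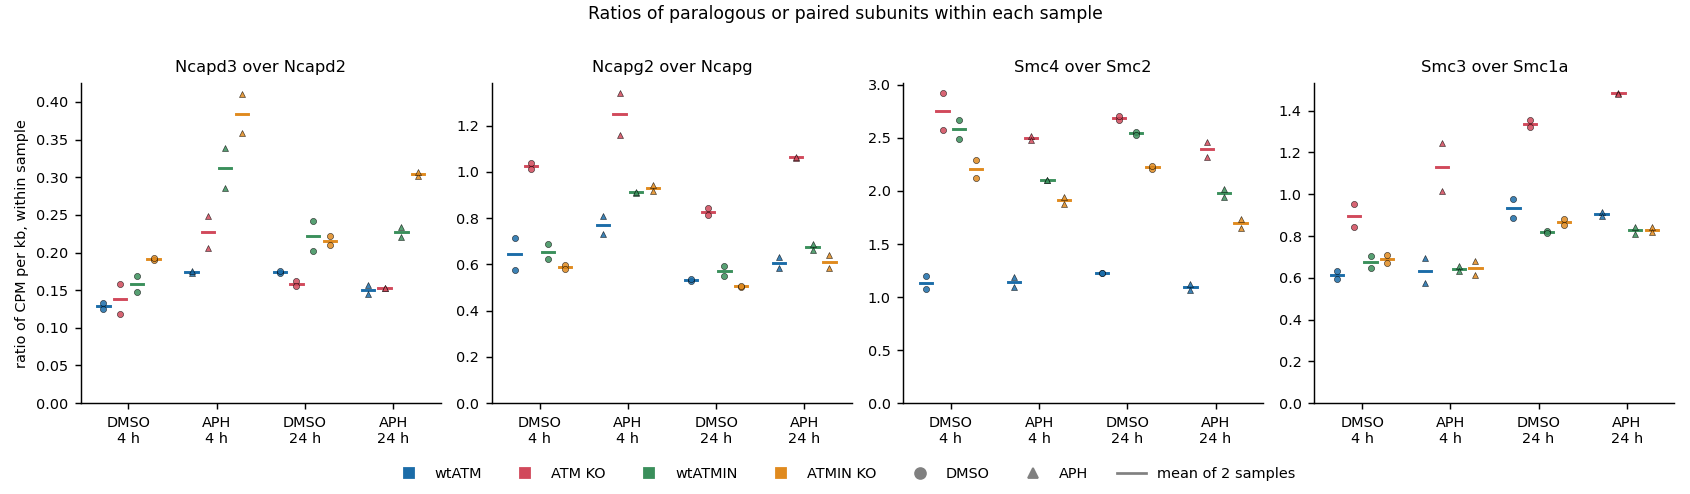
Ratio of 2 subunits' levels (CPM/kb) within each sample, for Ncapd3 over Ncapd2, Ncapg2 over Ncapg, Smc4 over Smc2 and Smc3 over Smc1a; points are samples and bars the mean of 2. The Ncapd3 over Ncapd2 ratio runs from 0.119 to 0.410 over the 32 samples and is higher with APH than with DMSO at 4 h in each line.

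After 24 h of APH most members were called higher in ATMINko and few or none in the other lines, which by itself is no test of a difference between lines. In ATMINko 8 of the 10 rose and none fell, against 14.3% higher and 15.8% lower among all genes. The condensin II subunits rose most: Ncapd3 went from 81.6 and 77.2 to 131 and 130.4 CPM (0.72 ± 0.084, adjusted p = 3.45e-08) and Ncapg2 from 131 and 136 to 218 and 218 CPM (0.71 ± 0.094, adjusted p = 6.8e-07). Smc2 went from 238 and 242 to 368 and 369 CPM (0.62 ± 0.15, adjusted p = 0.00503), Ncaph from 114 and 107 to 154 and 154 CPM (0.48 ± 0.060, adjusted p = 1.11e-07) and Rad21 from 525 and 546 to 659 and 626 CPM (0.26 ± 0.067, adjusted p = 0.00279). Ncapg (0.43 ± 0.11), Ncapd2 (0.22 ± 0.060) and Smc1a (0.20 ± 0.068) rose as well, on the log2 scale, whereas Smc4 (0.23) and Smc3 (0.14) did not pass by the main fit. Smc4 was called higher with no filter (0.22, adjusted p = 0.0121) and with the compared groups alone (0.23, 3.52e-05). Smc3 was called higher with the compared groups alone (0.14, 0.0106). All 10 members were higher in both APH samples than in both DMSO samples, as were 32.4% of all genes. The call of Smc1a was lost without any 1 of the 4 libraries (highest adjusted p = 0.127).

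In wtATMIN 3 members rose at 24 h (all genes 13.6% higher and 15.3% lower): Ncapd2 from 475 and 435 to 507 and 516 CPM, Ncaph from 139 and 139.6 to 161 and 163 CPM and Ncapg2 from 130.2 and 146 to 178 and 179 CPM. In each of the 3 both APH samples lay above both DMSO samples, with log2 changes of 0.17 ± 0.060, adjusted p = 0.0324, then 0.22 ± 0.059, adjusted p = 0.00475, and 0.37 ± 0.093, adjusted p = 0.00269. Smc2 went there from 232 and 255 to 304 and 308 CPM and was not called by the main fit. It was called with no filter (log2 0.30, adjusted p = 0.000488) and with the compared groups alone (0.33, 7.03e-07). Ncapg, Ncapd3 and Rad21 were also called higher with the compared groups alone (0.14, 0.21 and 0.13). The call of Ncapd2 was lost without replicate 2 of the DMSO or either APH sample (log2 0.10 to 0.21, highest adjusted p = 0.365), that of Ncaph without DMSO replicate 1 or APH replicate 2 (0.0748), and that of Ncapg2 without DMSO replicate 1 (0.0889). In ATMko Ncapg2 rose from 202 and 209 to 249 and 242 CPM (0.26 ± 0.092, adjusted p = 0.0348) and Ncaph fell from 83.2 and 82.9 to 73.7 and 68.8 CPM (-0.22 ± 0.063, adjusted p = 0.00719), against 15.7% higher and 12.2% lower among all genes. The call of Ncapg2 was lost without any 1 of the 4 libraries (log2 0.23 to 0.28, highest adjusted p = 0.174), and that of Ncaph without APH replicate 2 (0.126). In wtATM no member passed by edgeR at 24 h, against 14.4% higher and 14.3% lower among all genes; the nearest were Ncaph (-0.15, adjusted p = 0.0589), Ncapg (-0.27, 0.067) and Ncapd3 (-0.21, 0.0734). At an unadjusted p under 0.05 the count in wtATM was 4, and by DESeq2 with adjusted p it was 0. No member was called in the same direction in all 4 lines at 24 h, against 2.68% of all genes higher and 3.13% lower in all 4. The medians of the 10 were -0.13, 0.03, 0.15 and 0.35 in wtATM, ATMko, wtATMIN and ATMINko, against 0.00, 0.01, 0.00 and 0.00 over all genes.

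The difference between the 24 h and the 4 h response was tested as an interaction within each line. Ncapd2 differed in all 4 lines, its response being higher at 24 h by 0.51 ± 0.087, adjusted p = 5.25e-05 in wtATM, 0.48 ± 0.086, adjusted p = 0.00012 in ATMko, 0.72 ± 0.086, adjusted p = 8.06e-08 in wtATMIN and 1.01 ± 0.086, adjusted p = 4.49e-11 in ATMINko (log2). Rad21 differed in 3, by 0.41 in wtATM, 0.55 in wtATMIN and 0.84 in ATMINko. In ATMINko 9 of the 10 had a higher response at 24 h, all but Smc3, against 10.8% higher and 10.3% lower among all genes. In wtATMIN Ncapd2, Rad21 and Ncaph (0.44) differed (all genes 9.12% higher and 9.44% lower), and in wtATM Ncapd2 and Rad21 (all genes 7.87% higher and 7.24% lower). In ATMko Smc4 (-0.59), Ncapg (-0.53) and Ncapg2 (-0.44) had a lower response at 24 h (all genes 12.1% higher and 9.89% lower). Without the shallow 4 h library these were -0.30, -0.27 and -0.30 and none was called, while each was also lost without replicate 2 of the ATMko samples with DMSO at 4 h, DMSO at 24 h or APH at 24 h. In ATMINko Smc1a was lost in 7 of 8 fits that left out a library (highest adjusted p = 0.145), Ncapg2 in 3 (0.0782) and Smc4 without replicate 2 of the 4 h APH samples (0.0580).

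The response to APH was compared between the lines of each pair in the same way. At 4 h, 5 members had a higher response in ATMko than in wtATM, against 6.02% higher and 5.35% lower among all genes and with a median of 0.45 against 0.01: Smc2 by 0.86 ± 0.22, adjusted p = 0.021, Smc4 by 0.72 ± 0.19, adjusted p = 0.0194, Ncapg by 0.76 ± 0.17, adjusted p = 0.00608, Ncapd3 by 0.39 ± 0.13, adjusted p = 0.0485 and Ncapg2 by 0.79 ± 0.14, adjusted p = 0.00075 (log2). Without replicate 2 of the ATMko APH samples, Ncapg2 (0.65, adjusted p = 0.00658) and Ncapg (0.50, 0.0433) were called, and Smc2 (0.55, 0.169), Smc4 (0.43, 0.142) and Ncapd3 (0.34, 0.179) were not. None of the 5 was called when the 8 libraries of 4 h in these lines were fitted alone (adjusted p from 0.116 to 0.269). Among all genes, that fit called 2 higher and 2 lower, against 1112 and 989 in the main fit. With library size only, Smc2 (0.0526), Smc4 (0.0671) and Ncapd3 (0.176) were not called. Smc2, Smc4 and Ncapd3 were also lost without replicate 2 of the ATMko DMSO samples. Among the wtATM libraries, Smc2 was lost without either DMSO sample or APH replicate 2, Smc4 without DMSO replicate 1 or APH replicate 2, and Ncapd3 without any 1 of the 4 (highest adjusted p = 0.387). The differences of the other 5 were 0.13 for Ncapd2 (adjusted p = 0.378), -0.01 for Ncaph, 0.24 for Smc1a, 0.51 for Smc3 (adjusted p = 0.0519) and 0.28 for Rad21 (adjusted p = 0.0548, and 0.0289 by DESeq2). For Rad21 it was 0.36 (adjusted p = 0.00337) without replicate 1 and 0.17 (0.361) without replicate 2 of the ATMko APH samples. The median of the 10 was 0.32 without replicate 2 and 0.56 without replicate 1 of the ATMko APH samples.

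At 24 h no member's response differed between ATMko and wtATM by edgeR (all genes 2.68% higher and 1.23% lower), the largest difference being Ncapg2 (0.35, adjusted p = 0.165). Between ATMINko and wtATMIN no member's response differed at 4 h by edgeR (all genes 0.346% higher and 0.325% lower), the Ncapd2 difference being -0.24 (adjusted p = 0.289). In each of these comparisons 1 member had an unadjusted p under 0.05, and DESeq2 called 0. At 24 h Ncapd3 responded more in ATMINko, by 0.51 ± 0.12, adjusted p = 0.0114, against 1.01% higher and 1.42% lower among all genes. That call was lost without replicate 2 of wtATMIN with DMSO, replicate 2 of wtATMIN with APH or replicate 2 of ATMINko with DMSO (log2 0.44 to 0.60, highest adjusted p = 0.105).

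The lines also differed under the same treatment; these comparisons use the samples of the comparisons above again. Smc4, Ncapd2, Ncapd3, Ncapg2 and Smc3 were higher in ATMko than in wtATM in all 4 conditions, as were 18% of all genes; no member was lower in all 4, against 17.7% of all genes. Smc4 lay at 174 and 158 CPM in wtATM and 321 and 321 CPM in ATMko with DMSO for 4 h, and at 255 and 257 against 489 and 527 CPM at 24 h. The log2 differences with DMSO were 0.95 ± 0.13, adjusted p = 4.2e-06 at 4 h, and 0.99 ± 0.13, adjusted p = 1.79e-06 at 24 h. Ncapg2 lay at 111 and 112 CPM in wtATM and 202 and 209 in ATMko with DMSO for 24 h (0.88 ± 0.094, adjusted p = 1.46e-09), and the difference with APH was 1.23 ± 0.095, adjusted p = 8.28e-13. Smc3 differed by 0.56 and 0.53 with DMSO and by 0.83 with APH for 24 h, Ncapd2 by 0.39, 0.53 and 0.63, and Ncapd3 by 0.50, 0.40 and 0.65. All 5 were called in each fit that left out 1 library of the compared groups.

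Smc2, the partner of Smc4, differed by -0.32 at 4 h (adjusted p = 0.0973) and -0.14 at 24 h (0.445) with DMSO, below 0 where Smc4 lay above it. It was called lower in ATMko at 4 h with no filter (-0.31, adjusted p = 0.000202) or with the compared groups alone (-0.33, 0.000438), and at 24 h with the compared groups alone (-0.16, 0.0065). Among the other members, Ncaph was higher in ATMko with DMSO for 4 h (0.24 ± 0.064, adjusted p = 0.00154), Rad21 with DMSO for 24 h (0.18 ± 0.067, adjusted p = 0.0226) and Ncapg with APH for 24 h (0.42 ± 0.11, adjusted p = 0.00203). All 10 were called higher with APH for 4 h, the condition of the libraries that stood apart; without the shallow library Smc2 was 0.23 (adjusted p = 0.241) and the other 9 were still called. With these 4 libraries fitted alone, Smc2 (0.0852), Ncaph (0.155) and Smc1a (0.146) were not called. Smc2 and Smc1a lost that call without replicate 2 of wtATM with APH for 4 h (highest adjusted p for Smc1a 0.121). Rad21 was lost at 24 h with DMSO without replicate 2 of either line (0.156) and with library size only (0.169). In all, 6 members were higher with DMSO for 4 h, 10 with APH for 4 h, 6 with DMSO for 24 h and 6 with APH for 24 h, and none lower, against 27.3% higher and 27.9% lower, 30.3% higher and 28.6% lower, 29.5% higher and 29.8% lower and 31.5% higher and 29.9% lower among all genes. The median difference of the 10 ran from 0.32 to 0.62, against 0.00 and 0.03 over all genes in the same conditions. With APH for 4 h and without the shallow library it was 0.53.

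Among the 4 lines, Smc4 was lowest in wtATM in each condition. The ratio of Smc4 over Smc2 was 1.19 and 1.08 in wtATM with DMSO for 4 h, against 2.58 and 2.92 in ATMko, 2.49 and 2.67 in wtATMIN and 2.30 and 2.12 in ATMINko. Between the wild-type lines, Smc4 was higher in wtATMIN than in wtATM by 1.18 ± 0.13, adjusted p = 2.23e-07 with DMSO at 4 h, and 0.97 ± 0.13, adjusted p = 2.15e-06 at 24 h. The differences at 4 h and 24 h were 0.00 and -0.09 for Smc2, 0.31 and 0.62 for Ncapd2, 0.28 and 0.20 for Ncapg, 0.56 and 0.75 for Ncaph, 0.60 and 0.96 for Ncapd3. They were 0.31 and 0.31 for Ncapg2, 0.36 and 0.47 for Smc1a, 0.50 and 0.29 for Smc3, -0.05 and 0.11 for Rad21. In that comparison 8 members were higher at 4 h and 7 at 24 h, none lower, against 28.8% higher and 28.4% lower at 4 h and 31.5% higher and 30.2% lower at 24 h among all genes. The calls of Ncapg at 4 h and Smc3 at 24 h were lost without any 1 of the 4 libraries (highest adjusted p = 0.19 and 0.18). Those of Ncapg2 were lost without replicate 1 of either line at 4 h (0.193) and without wtATMIN replicate 2 at 24 h (0.0935). Smc3 over Smc1a was highest in ATMko, from 0.955 and 0.841 with DMSO at 4 h to 1.49 and 1.48 with APH at 24 h.

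**Figure D4:**
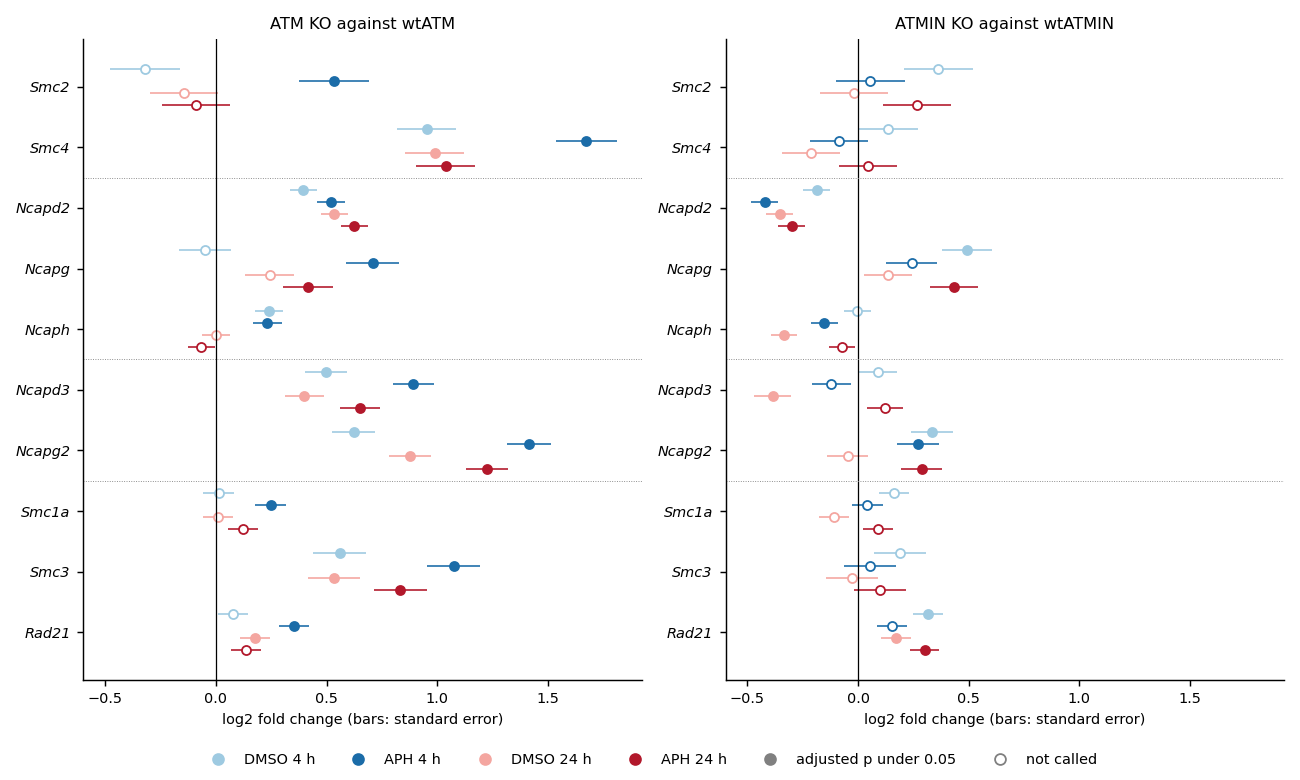
Log2 difference of each member between the lines of each pair (knock-out minus wild type) in the 4 conditions, from the edgeR fit over all 32 samples; bars are standard errors and filled points passed an adjusted p under 0.05. Smc4, Ncapd2, Ncapd3, Ncapg2 and Smc3 lie above 0 in all 4 conditions in ATMko, and Ncapd2 below 0 in all 4 in ATMINko.

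In ATMINko, Ncapd2 was the member lower than in wtATMIN in all 4 conditions, as were 13.2% of all genes; none was higher in all 4, against 11.4%. It lay at 475 and 435 CPM in wtATMIN and 356 and 356 CPM in ATMINko with DMSO for 24 h, and at 243 and 259 against 180.0 and 195 CPM with APH for 4 h. The 2 lines did not overlap in any condition. The log2 differences were -0.19 ± 0.061, adjusted p = 0.0114 (DMSO, 4 h), then -0.42 ± 0.062, adjusted p = 5.44e-07 (APH, 4 h), -0.35 ± 0.060, adjusted p = 5.99e-06 (DMSO, 24 h) and -0.30 ± 0.060, adjusted p = 7.15e-05 (APH, 24 h). The first was lost without replicate 2 of either line (highest adjusted p = 0.0859).

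Ncaph was lower in ATMINko with DMSO for 24 h, 139 and 139.6 against 114 and 107 CPM (-0.33 ± 0.060, adjusted p = 1.3e-05), and with APH for 4 h (-0.15 ± 0.063, adjusted p = 0.0485). Ncapd3 was lower with DMSO for 24 h, 99.1 and 109 against 81.6 and 77.2 CPM (-0.39 ± 0.085, adjusted p = 0.000222). Ncapg and Ncapg2 were higher with DMSO for 4 h (0.49 ± 0.11 and 0.33 ± 0.095) and with APH for 24 h (0.43 ± 0.11 and 0.29 ± 0.092), and Ncapg2 with APH for 4 h (0.27 ± 0.095). Rad21 was higher in 3 conditions, by 0.32 with DMSO for 4 h, 0.17 with DMSO for 24 h and 0.30 with APH for 24 h. With APH for 4 h, Rad21 was not called by the main fit. It was called higher there with RLE size factors (0.17, adjusted p = 0.0490), DESeq2 (0.17, 0.0410) and the compared groups alone (0.18, 0.00448). The remaining members were not called in any of these conditions by the main fit. With no filter, Smc2 was called higher with DMSO for 4 h (log2 0.37, adjusted p = 5.42e-06) and with APH for 24 h (0.30, 0.000154). Smc3 was then called higher with DMSO for 4 h (0.20, 0.0292) and Smc4 lower with DMSO for 24 h (-0.20, 0.0160). Each of these was also called with the compared groups alone. In the order DMSO and APH at 4 h, then DMSO and APH at 24 h, Smc2 differed by 0.36, 0.05, -0.02 and 0.27 and Smc4 by 0.14, -0.09, -0.21 and 0.04. Smc1a differed by 0.16, 0.04, -0.11 and 0.09 and Smc3 by 0.19, 0.05, -0.03 and 0.10. Directions were thus mixed within condensin I, where Ncapg and Ncapd2 differed in opposite directions in the same samples. With APH for 4 h, the call of Ncaph was lost without any 1 of the 4 libraries (highest adjusted p = 0.246) and that of Ncapg2 without either wtATMIN sample or ATMINko replicate 1 (0.23). With DMSO, Ncapg2 was lost at 4 h without wtATMIN replicate 2 or ATMINko replicate 1 (0.139), and Rad21 at 24 h without wtATMIN replicate 1 or either ATMINko sample (0.179). With library size only, Ncapg2 was not called in any condition (adjusted p from 0.0733 to 0.15 in the 3 where it had been), nor Rad21 with DMSO for 24 h (0.287). In all, 3 were higher and 1 lower with DMSO for 4 h (all genes 21.9% higher and 23% lower), 1 and 2 with APH for 4 h (19.8% higher and 22.3% lower), 1 and 3 with DMSO for 24 h (23.4% higher and 26.2% lower), and 3 and 1 with APH for 24 h (23.8% higher and 26.8% lower). The median difference of the 10 was 0.18, 0.05, -0.08 and 0.11 in that order, against -0.01, -0.01, -0.01 and -0.01 over all genes.

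The DMSO samples themselves differed between 4 h and 24 h. Ncapg and Ncapd3 were higher at 24 h than at 4 h in all 4 lines, as were 9.56% of all genes; none was lower in all 4, against 9.97%. Ncapg went from 73.9 and 69.5 CPM at 4 h to 117 and 117 at 24 h in wtATM and from 74.1 and 64.4 to 134 and 143 in ATMko. The samples of the 2 times did not overlap, and the log2 changes were 0.71 ± 0.11, adjusted p = 1.11e-05 in wtATM, 1.00 ± 0.11, adjusted p = 5.54e-08 in ATMko, 0.63 ± 0.11, adjusted p = 2.57e-05 in wtATMIN and 0.28 ± 0.11, adjusted p = 0.0403 in ATMINko. Members higher at 24 h numbered 7 in wtATM (all genes 23.1% higher and 23.3% lower), 7 in ATMko (24.6% higher and 24.1% lower), 9 in wtATMIN (29.1% higher and 26.3% lower) and 3 in ATMINko (23.4% higher and 23.8% lower), and Smc1a was lower in ATMINko (-0.27 ± 0.068, adjusted p = 0.00153). In wtATM, ATMko, wtATMIN and ATMINko, Smc2 changed by 0.52, 0.69, 0.43 and 0.05, Smc4 by 0.63, 0.66, 0.41 and 0.06 and Ncapg2 by 0.44, 0.69, 0.44 and 0.05, each called in all but ATMINko. Smc3 changed by 0.50, 0.47, 0.29 and 0.06, called in the same 3 lines. Ncapd3 changed by 0.43, 0.33, 0.79 and 0.32 and Ncaph by 0.35, 0.11, 0.53 and 0.20. Ncapd2 changed by 0.00, 0.14, 0.31 and 0.14, called in wtATMIN, and Rad21 by 0.13, 0.24, 0.29 and 0.15, called in ATMko and wtATMIN. In wtATMIN the calls of Smc2 and Smc4 were lost without replicate 2 of either time (highest adjusted p = 0.147 and 0.0808) and that of Smc3 without any 1 of the 4 libraries (0.198); in ATMko that of Rad21 was lost without replicate 2 of its 4 h samples (0.133). The call of Ncapg in ATMINko was lost without any 1 of the 4 libraries (highest adjusted p = 0.16), that of Ncaph there (0.20) without replicate 1 of either time (0.0897), that of Ncapd3 in ATMko without replicate 2 of its 4 h samples (0.213), and that of Smc1a with scaling by library size alone (0.134). Reads on Gm42418 lay between 214202 and 1234470 in the 16 libraries of 4 h and between 4164 and 101223 in those of 24 h, so that time and this feature of the libraries cannot be told apart.

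Genes that act with these complexes gave a wider view. Of 39 tested related genes of 42 listed, 1, 19, 5 and 9 rose and 5, 6, 6 and 9 fell after 4 h of APH in wtATM, ATMko, wtATMIN and ATMINko, with median log2 changes of -0.08, 0.34, 0.02 and 0.00. Among all genes 2.82% higher and 2.76% lower, 14% higher and 15.4% lower, 7.25% higher and 7.75% lower and 9.48% higher and 10.9% lower were called. Without the shallow library, 10 related genes rose and 3 fell in ATMko, with a median of 0.097, against 6.46% higher and 6.09% lower among all genes. At 24 h, 1, 6, 11 and 18 rose and 11, 7, 6 and 2 fell, against 14.4% higher and 14.3% lower, 15.7% higher and 12.2% lower, 13.6% higher and 15.3% lower and 14.3% higher and 15.8% lower among all genes. Among genes of cohesin cleavage and protection, Pttg1, the securin that inhibits separase, fell in all 4 lines (-0.57, -0.51, -1.05 and -0.79), as did Espl1, separase itself (-0.36, -0.54, -0.22 and -0.22). Of all genes tested, 0.893% were lower in all 4 lines at 4 h. Values of Sgo1 and Sgo2a, the other genes of that list, are not given here. Kif4, a chromosome-bound kinesin that works with condensin, fell in all 4 as well (-0.45, -0.21, -0.44 and -0.57). Of 7 genes that set up cohesion at replication forks, 1, 3, 3 and 6 rose and 0, 2, 0 and 0 fell. Without the shallow library, 1 of the 7 rose and none fell in ATMko, where Pttg1 (-0.47, adjusted p = 0.00355) and Espl1 (-0.42, 0.000473) were still called and Kif4 (-0.24, 0.0562) was not.

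At 24 h, Stag1, one of the alternative cohesin subunits that bind the Rad21 kleisin, fell in all 4 lines (-1.14, -0.76, -1.12 and -0.64), and so did Pds5b, a cohesin-bound regulator (-0.44, -0.36, -0.37 and -0.25). Of all genes, 3.13% were lower in all 4 lines at 24 h. Rad21 changed by 0.06, 0.02, 0.13 and 0.26 in the same samples, called in ATMINko. Esco2, which acetylates Smc3 in S phase, rose in ATMko (0.55), wtATMIN (0.46) and ATMINko (0.97). Cdca5, the cohesin protector sororin, rose in wtATMIN (0.53) and ATMINko (0.76), and so did Top2a, the topoisomerase of mitotic chromosomes (0.34 and 0.66). Ncaph2, the kleisin of condensin II, was called among the APH comparisons in ATMko at 4 h alone (-0.32; without the shallow library -0.21, adjusted p = 0.0413).

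Between the lines, Mau2, which with Nipbl loads cohesin, was lower in ATMINko than in wtATMIN in all 4 conditions (-0.95 with DMSO and -1.13 with APH at 4 h, -0.97 and -0.86 at 24 h). Of all genes, 13.2% were lower in ATMINko in all 4. Pttg1 and Cdca5 were lower there too, with DMSO for 24 h by -1.25 and -0.85. In ATMko against wtATM, Pds5b was higher (0.69 and 0.62 with DMSO at 4 h and 24 h) and Hdac8, the Smc3 deacetylase, lower (-0.83 and -0.96). Of the 39, 17 were higher and 4 lower in ATMko with DMSO for 4 h, against 27.3% higher and 27.9% lower among all genes. In ATMINko 10 were higher and 8 lower in that condition, against 21.9% higher and 23% lower among all genes.

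Transcripts of cell division and replication were set beside the members. After 4 h of APH, 2.82% of all genes were higher and 2.76% lower in wtATM, and 14% and 15.4% in ATMko. These shares were 7.25% and 7.75% in wtATMIN and 9.48% and 10.9% in ATMINko. Of 16 mitotic genes, none rose and 14, 11, 12 and 15 fell after 4 h of APH in wtATM, ATMko, wtATMIN and ATMINko, with median log2 changes of -0.65, -0.45, -0.78 and -0.85. In ATMko 10 fell without the shallow library, with a median of -0.35. Each median was lower than that of the 10 members in the same line. At 24 h, 6 fell and 1 rose in wtATM (all genes 14.4% higher and 14.3% lower) and 7 fell in ATMko (15.7% higher and 12.2% lower). In wtATMIN 13 rose (all genes 13.6% higher and 15.3% lower), and in ATMINko 10 rose and 1 fell (14.3% higher and 15.8% lower). The medians of the mitotic genes at 24 h were -0.15, -0.17, 0.37 and 0.29 in that order of lines. Of the 6 subunits of the replicative helicase MCM2-7, 0, 2, 5 and 5 rose at 4 h (2 in ATMko without the shallow library), and 6, 1, 6 and 3 fell at 24 h. The part of cell-cycle stage in the members' changes was not tested.

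Over the 16 group means, the log2 levels of member pairs had Pearson correlations from 0.0524 (Smc1a with Rad21) to 0.948 (Smc4 with Smc3), with a median of 0.651 over 45 pairs. Ncapg2 and Smc3, of different complexes, had 0.932 and Smc2 and Ncapg 0.892. These points share lines and treatments and are a description. Among 13199 genes, the gene most like each member over the group means was Upf3b for Smc2 (0.952), Prpf18 for Smc4 (0.969), Aspm for Ncapd2 (0.959), Pias1 for Ncaph (0.950) and Tor1b for Ncapd3 (0.951). For Ncapg2 it was Wdhd1, a replisome protein of the fork list (0.960), for Smc1a Acan (0.956), for Smc3 Plk4 (0.968) and for Rad21 Brd8 (0.964), with Ndc80 of the kinetochore next. For Ncapg it was Lcorl (0.960), the antisense neighbour whose reads cannot be told from those of Ncapg without strand, followed by Seh1l and Bub1, the latter a gene of the mitotic list.

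In the authors' deposited tables of 10 comparisons, adjusted p-values under 0.05 were set beside the calls made here. Of 100 pairs of member and comparison, 46 were called in both, all with the same sign, 34 in neither, 15 in the authors' deposited tables only and 5 here only.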

How the data were processed

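RNA-seq read counts per gene were taken as deposited, in 1 table of 39017 genes and 32 samples; every row named a gene. Per the labels, total RNA went through the Illumina TruSeq RNA Sample Prep Kit v2, which does not mark strand. The authors used TopHat2 2.0.13, Bowtie2 2.4.0, the build mm10 and DESeq2 1.6.3, per the submitters' processing notes; the counting tool, its strand setting and the gene annotation are not given in the sources used here. The authors' deposited tables of 10 comparisons also hold log2 fold changes and adjusted p-values, and they give gene symbols; 16476 genes took their symbol from them, 21380 from GENCODE M21 and 1161 had none. Gene lengths are those in the authors' deposited comparison tables. A further 120 columns of normalised values were not used.

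Genes with low counts were removed with filterByExpr, libraries were scaled by TMM, and 1 quasi-likelihood model with a coefficient for each of the 16 groups was fitted to all 32 samples (edgeR 4.0.16, R 4.3.3), since all groups share 1 estimate of the spread. This left 18484 genes with a common biological coefficient of variation of 0.0643. A gene was called at a Benjamini-Hochberg adjusted p under 0.05 over all genes of a comparison, and 30 comparisons were fitted. Standard errors are the log2 fold change over the square root of its F statistic. The code was tested on simulated data. CPM are on TMM-scaled library sizes; log2 levels for correlations use a prior count of 2.

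Every member is named in each family of comparisons with APH, between lines and between times, with Atm and Atmin. Related genes named by direction are a selection of those called, and genes of the SMC5/6 complex are not named. Mitotic and MCM2-7 genes are given by counts and medians. The 3 most alike genes are those with the highest Pearson correlation over group means, at a mean log2 CPM of 1 or more. The members and all lists were chosen with earlier results of these data known. Alternatives were DESeq2 1.42.0, the compared groups alone, no filter, library size only, RLE size factors, a replicate block and each library left out in turn. Replicate numbers do not pair samples by the labels, and same-numbered samples of compared groups had deviations correlated between -0.194 and 0.181 over 13199 genes.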

Additional observations from a re-analysis of the deposited data

Results flagged for a closer look

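Differences between 2 responses to APH, each tested as an interaction by edgeR, set these results apart; their adjusted p-values stand in the report, and no explanation was tested. At 4 h the response was higher in ATMko than in wtATM by 0.86 for Smc2, 0.72 for Smc4, 0.76 for Ncapg, 0.39 for Ncapd3 and 0.79 for Ncapg2 on the log2 scale. Without the shallowest library, Ncapg and Ncapg2 were called and Smc2, Smc4 and Ncapd3 were not. At 24 h the response of Ncapd3 was higher in ATMINko than in wtATMIN by 0.51.

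Within a line, the 24 h response exceeded the 4 h response in wtATM by 0.51 for Ncapd2 and 0.41 for Rad21. In wtATMIN it did so by 0.72 for Ncapd2, 0.44 for Ncaph and 0.55 for Rad21. In ATMko the difference was 0.48 for Ncapd2, -0.59 for Smc4, -0.53 for Ncapg and -0.44 for Ncapg2, and each of the last 3 was lost without replicate 2 of any 1 of the 4 ATMko groups.

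In ATMINko the difference between times was 1.01 for Ncapd2, 0.85 for Smc2, 0.85 for Ncaph, 0.84 for Rad21, 0.84 for Ncapg and 0.67 for Smc4. It was 0.50 for Ncapd3, 0.45 for Ncapg2 and 0.29 for Smc1a.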

How the results depend on the processing

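Of 300 values (10 members in 30 comparisons), none reversed in any alternative. Against the reported calls, DESeq2 lost 1 and gained 8, RLE size factors lost 3 and gained 4, library size only lost 20 and gained 9, no filter lost 6 and gained 20, and the compared groups alone lost 17 and gained 39. Of 141 calls, 44 were lost without at least 1 library, where the group with 1 sample left was assumed to vary like the others.

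Counts of members called with APH against DMSO moved as follows. In ATMko at 24 h the count was 1 with library size only, against 2. In ATMko at 4 h it was 3 with the compared groups alone, against 7. In wtATM at 24 h it was 1 with no filter and 2 with the compared groups alone, against 0. In wtATMIN at 24 h it was 5 with library size only and 7 with the compared groups alone, against 3. For the difference between the 24 h and 4 h responses, the count was 1 with library size only and 2 with the compared groups alone in ATMko, against 4, and 5 with the compared groups alone in wtATMIN, against 3. For the difference between ATMINko and wtATMIN in the response at 24 h it was 2 with no filter, 2 with DESeq2 and 7 with the compared groups alone, against 1. Between ATMko and wtATM it was 2 at 24 h with the compared groups alone, against 0, and 2 with library size only and 0 with the compared groups alone at 4 h, against 5. That 4 h fit of the compared groups alone called 2 higher and 2 lower among all genes. ATMINko against wtATMIN with APH for 24 h gave 7 with the compared groups alone, against 4. The cause of these moves was not tested.

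Without 1 library in turn, the counts with APH against DMSO ran from 3 to 5 in ATMINko at 4 h, 0 to 1 in ATMko at 24 h, 2 to 7 in ATMko at 4 h, 0 to 3 in wtATM at 24 h, 2 to 3 in wtATM at 4 h, 1 to 3 in wtATMIN at 24 h and 3 to 5 in wtATMIN at 4 h. They ran from 1 to 6 for the difference between times in ATMko, 6 to 9 for that in ATMINko, 0 to 1 for the difference in response between ATMINko and wtATMIN at 24 h and 2 to 8 for that between ATMko and wtATM at 4 h. For ATMINko against wtATMIN they ran from 1 to 2 with APH for 4 h and 2 to 5 with DMSO for 4 h, and for 24 h against 4 h of DMSO in ATMINko from 2 to 3.

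With the replicate number as a block, 298 of 300 calls were the same: ATMINko against wtATMIN gave 2 members with APH for 4 h, where Ncaph was lost (adjusted p = 0.054), and 5 with DMSO for 4 h, where Smc1a was gained (0.048). The numbers are shared only as labels, so this is no paired design.

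Scaling by library size alone shifted the median of all genes by -0.10 to 0.13 on the log2 scale. It changed the split of all genes called with APH against DMSO from 2586 higher and 2847 lower to 1895 and 3759 in ATMko at 4 h, and from 2648 and 2927 to 3611 and 1911 in ATMINko at 24 h. Depth limits replicate 2 of ATMko with APH for 4 h, the shallowest library, most, and 2 samples a group limit every test.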
